A study of Mus musculus with 5 samples.

Results

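Genes of the epidermal growth factor (EGF) family and of its ErbB receptors were followed in the mouse lung epithelial line MLE-15 under an shRNA against Grhl2. The set of 10 genes was defined by symbol and holds 3 receptors (Egfr, Erbb2 and Erbb3) and 7 ligands (Areg, Ereg, Hbegf, Tgfa, Epgn, Btc and Nrg1). Members were taken as the rows of the expression table that the platform annotation pairs with a member's symbol alone. This gave 9 rows for 9 of the 10 members, 1 row each, among 19937 genes with such a row. The expression of Areg, the ligand amphiregulin, is not analysed here. Of the 9, 8 passed the filter on low values, and these belong to 14979 genes tested.

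The treated cultures were MLE-15 cells transduced with a lentivirus carrying a Grhl2 shRNA and a GFP marker (Grhl2-shRNA, 3 arrays), and their comparison cultures received the same kind of vector with a non-targeting shRNA (Non-silencing, 2 arrays). Grhl2 is an epithelial transcription factor of the Grainyhead-like family. All 5 cultures come from 1 cell line, established from tumours of mice that carried SV40 large T antigen under a human SP-C promoter, and all were infected for 16 h with polybrene at 5 µg/ml and a multiplicity of infection of 50, then kept under puromycin at 5 µg/ml for 6 days. Each array holds an independent transduction per the labels, so the spread is between transductions of 1 line and not between animals, and only 1 hairpin against Grhl2 is named. The values are log2 expression values made by the authors with RMA, and a difference is a log2 fold change, Grhl2 shRNA minus control, from limma.

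ErbB receptors are tyrosine kinases of the cell surface that pair when a ligand binds. Erbb2 has no known soluble ligand and serves as a partner for the others, while Erbb3 has little kinase activity of its own and signals through its partner. The ligands are made as membrane-anchored precursors that proteases release, and the pathway drives growth and repair of lung epithelium through the Ras-ERK and PI3K-AKT cascades.

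The targeted gene Grhl2 measured 7.43, 7.43 and 7.60 (log2) in Grhl2 shRNA cells, against 7.77 and 7.68 in control cells. Its fitted level was 85.0% of control with a 95% confidence interval of 76.4 to 94.5%, and its adjusted p of 0.0818 missed the threshold of 0.05, though without shRNA replicate 3 it was 0.0471. Median log2 values of the 5 arrays lay between 5.29 and 5.32. The 6 epithelial markers listed all passed the filter with 0 called. Of 5 alveolar type II markers tested, Napsa rose by 0.36, and the other 4 had differences from −0.25 (Sftpc, adjusted p = 0.63) to 0.04 (Sftpb), none of which passed, with Abca3 at −0.17 (adjusted p = 0.0601) and Lamp3 below the filter. Among 6 fibroblast markers, Dcn (decorin) rose by 0.70 (SE 0.14, adjusted p = 0.0363) and the other 5 had differences from −0.07 to just below 0, none of which passed. The mean log2 value of the 6 fibroblast markers was 5.83 to 5.93 on the Grhl2 shRNA arrays and 5.79 to 5.80 on the control arrays, and its part in the results below was not tested. The endothelial markers Kdr and Emcn and the immune markers Ptprc and Itgam lay below the filter, and the other endothelial and immune markers tested were not called.

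None of the 8 tested members passed the threshold, a limma adjusted p under 0.05 over all 14979 genes, which 6.38% of all genes passed. The members nearest to it were the ligand Btc, at 115% of the control level, and the receptors Erbb2 and Erbb3, at 88.7% and 89.3% of it. At an adjusted p under 0.1, 3 of 8 members would be called (Btc, Erbb2 and Erbb3), against 12.4% of all genes. At an unadjusted p under 0.05 it is 4 of 8, the same 3 and Ereg, against 23.1% of all genes. The groups did not overlap in 5 of 8 members, against 41.5% of all genes. The median difference of the 8 members was 0.02, against 0.002 over all genes tested, and the median size of the difference regardless of sign was 0.12, against 0.07. The largest of the 8 differences was 0.20 on the log2 scale, and their standard errors ran from 0.04 to 0.08.

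**Figure D1:**
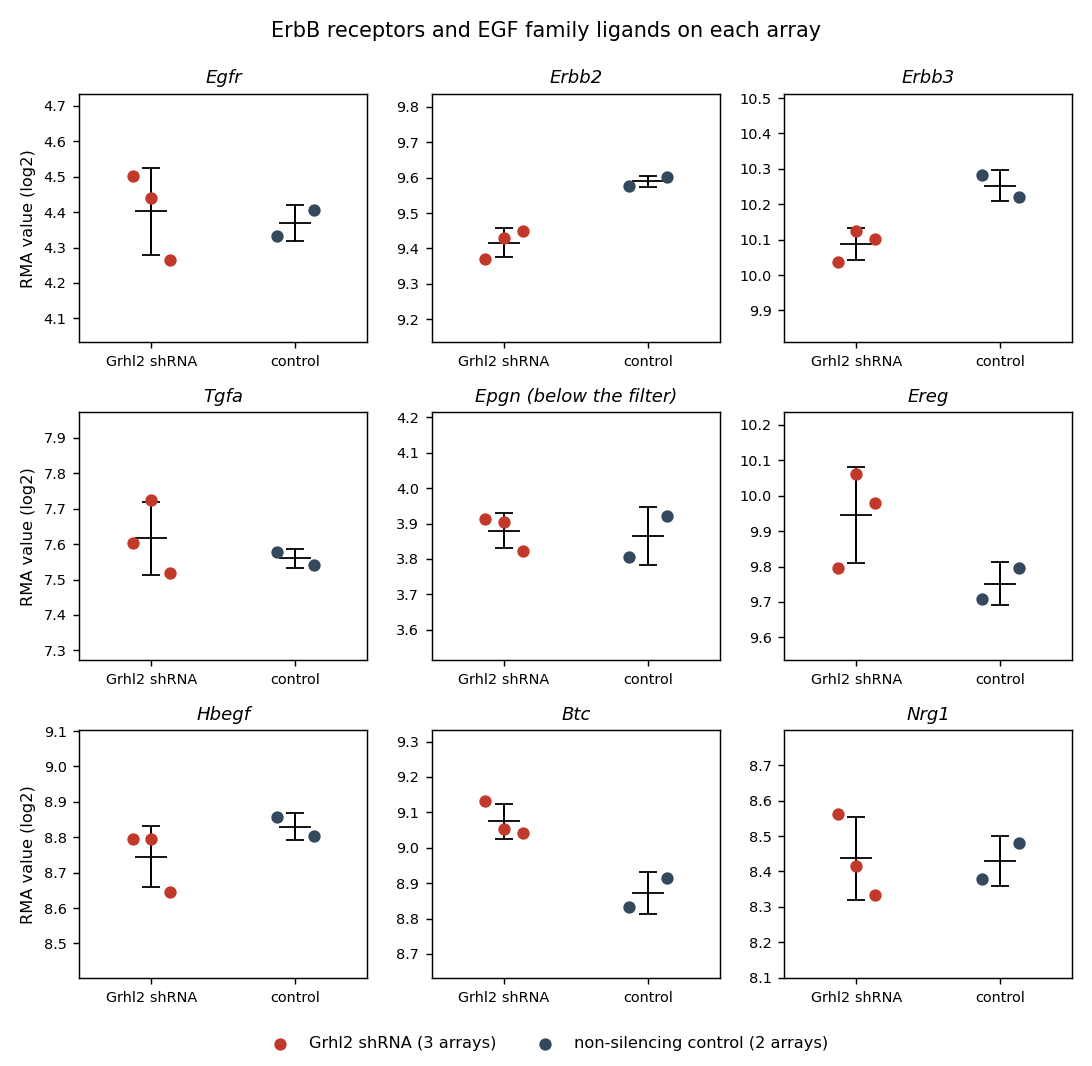
RMA values (log2, y axis) of the 9 members with a row, 1 panel a gene. Points are arrays, Grhl2 shRNA on the left and control on the right, horizontal marks are group means and bars are SD (n = 3 and 2). Every panel spans the same height on the log2 scale, so distances can be compared between panels. In Erbb2 and Erbb3 all Grhl2 shRNA points lie below the control points, and in Btc all lie above them.

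Promoter windows from RefSeq (GRCm38.p6) were matched by symbol for 6 of the 10 members, covering 250 bases before and 50 after the start of each gene. The windows of Btc and Erbb2 are shown because these members had the smallest adjusted p-values, and the capitals mark the 50 bases from the annotated start onward. Btc lies on the minus strand (chr5:91402945-91403244) and Erbb2 on the plus strand (chr11:98412234-98412533).
Btc: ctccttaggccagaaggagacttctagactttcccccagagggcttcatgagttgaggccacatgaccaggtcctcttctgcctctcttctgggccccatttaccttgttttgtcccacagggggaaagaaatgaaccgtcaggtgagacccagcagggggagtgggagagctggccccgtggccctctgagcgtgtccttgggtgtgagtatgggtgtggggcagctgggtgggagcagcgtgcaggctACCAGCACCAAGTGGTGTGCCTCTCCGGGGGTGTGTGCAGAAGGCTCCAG
Erbb2: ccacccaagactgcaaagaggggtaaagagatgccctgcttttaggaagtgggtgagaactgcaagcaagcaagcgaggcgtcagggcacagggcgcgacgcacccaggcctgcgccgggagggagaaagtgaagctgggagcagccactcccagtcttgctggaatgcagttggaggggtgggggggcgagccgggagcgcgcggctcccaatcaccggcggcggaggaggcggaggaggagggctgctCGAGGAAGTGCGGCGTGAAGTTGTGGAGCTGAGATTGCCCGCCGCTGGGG
The Erbb2 window holds 66.0% G and C with 21 CpG dinucleotides and the Btc window 60.3% with 5 CpG, against medians of 52.7% and 7 over all 32851 windows. All 6 windows were searched on both strands for the Grainyhead consensus AACCGGTT and for the looser form AACNNGTT, which contains it. Neither was found in them, and 0.146% and 4.20% of all windows hold them. The search covers these letters in these windows alone.

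The receptor gene Erbb2, probe set 10380896, measured 9.37, 9.43 and 9.45 (log2) in Grhl2 shRNA cells, against 9.58 and 9.60 in control cells. All 3 shRNA values lay below both control values, and the gap between the nearest arrays of the groups was 0.13. Means were 9.42 ± 0.04 (SD, n = 3) in Grhl2 shRNA cells and 9.59 ± 0.02 (SD, n = 2) in control cells. The log2 fold change was −0.17 (SE 0.044, adjusted p = 0.0678), with a 95% confidence interval for the level of 82.5 to 95.3% of control.

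Erbb3 (10373467), the neuregulin receptor that signals with Erbb2, had 10.04, 10.13 and 10.10 in Grhl2 shRNA cells, against 10.28 and 10.22 in control cells. Again the shRNA arrays were the lower 3, with no overlap and a gap of 0.10. Its log2 fold change was −0.16 (SE 0.047, adjusted p = 0.0906), and the 95% confidence interval for its level was 82.6 to 96.4% of control. Both receptors therefore had an unadjusted interval that left out 100%, while their adjusted p-values missed the threshold.

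Egfr (10374366), the receptor of EGF itself and of most ligands in the set, was measured just above the filter of 4.22. It had log2 values of 4.50, 4.44 and 4.27 in Grhl2 shRNA cells, against 4.33 and 4.41 in control cells, and the groups overlapped. Its log2 fold change was 0.03 (SE 0.073, adjusted p = 0.84), with an interval of 90.7 to 115% of control. Near the filter an array responds weakly to a change, so the interval says little about large changes of a faint transcript.

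Of the ligands, Btc (betacellulin, 10531274), which binds Egfr and the fourth receptor Erbb4, had the smallest adjusted p of all members. Its log2 values were 9.13, 9.05 and 9.04 in Grhl2 shRNA cells, against 8.83 and 8.92 in control cells. The 3 shRNA arrays were the higher ones, with a gap of 0.12 to the nearest control array. Means were 9.07 ± 0.05 (SD, n = 3) in Grhl2 shRNA cells and 8.87 ± 0.06 (SD, n = 2) in control cells, a difference of 0.20 (SE 0.050, adjusted p = 0.0629) and an interval of 106 to 125% of control.

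Ereg (epiregulin, 10523175), which binds the same receptors, had 9.80, 10.06 and 9.98 in Grhl2 shRNA cells, against 9.71 and 9.80 in control cells. The groups did not overlap, but only by 0.0018, since shRNA replicate 1 and control replicate 2 were almost equal. The log2 fold change was 0.19 (SE 0.080, adjusted p = 0.203), with a wide interval of 100.45 to 130% of control. It was 0.27 without shRNA replicate 1 and 0.14 without shRNA replicate 2, the array with the highest value, with adjusted p-values of 0.0652 and 0.389.

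Hbegf (10458340), the heparin-binding ligand of Egfr and Erbb4, had 8.79, 8.79 and 8.65 in Grhl2 shRNA cells, against 8.86 and 8.80 in control cells. The shRNA arrays were lower, by 0.0079 at the nearest pair, and replicate 3 stood below the other 2. The log2 fold change was −0.09 (SE 0.059, adjusted p = 0.439), with an interval of 85.6 to 104% of control. It ranged from −0.113 without control replicate 2 to −0.036 without shRNA replicate 3, the array with the lowest value, and was −0.058 without control replicate 1.

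Tgfa (10539692), the Egfr ligand transforming growth factor alpha, had 7.60, 7.73 and 7.52 in Grhl2 shRNA cells, against 7.58 and 7.54 in control cells. The shRNA arrays lay on both sides of the control arrays, and the log2 fold change was 0.06 (SE 0.064, adjusted p = 0.662), with an interval of 93.6 to 116% of control. It was 0.0018 without shRNA replicate 2, the array with the highest value, 0.037 without control replicate 2 and 0.105 without shRNA replicate 3. Nrg1 (neuregulin 1, 10578045), the ligand of Erbb3 and Erbb4, had 8.56, 8.42 and 8.33 in Grhl2 shRNA cells, against 8.38 and 8.48 in control cells. Both control values lay within the shRNA range, and the difference was 0.0076 (SE 0.073, adjusted p = 0.969), with an interval of 89.2 to 113% of control. Epgn (epigen, 10523168), an Egfr ligand, stayed below the filter with 3.91, 3.90 and 3.82 in Grhl2 shRNA cells, against 3.81 and 3.92 in control cells. In the fit without a filter its difference was 0.02 (adjusted p = 0.93).

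**Figure D2:**
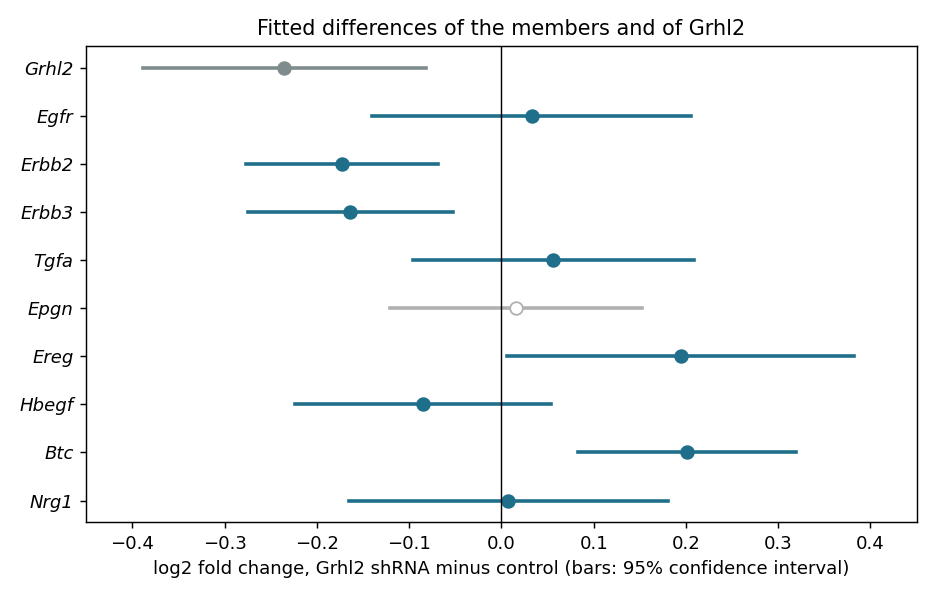
Log2 fold changes, Grhl2 shRNA minus control (x axis), with unadjusted 95% confidence intervals as bars, for Grhl2 and the 9 members with a row. The open grey point is Epgn, from the fit without a filter. The intervals of Erbb2, Erbb3, Btc and Ereg lie to one side of 0, while those of Egfr, Tgfa, Epgn, Hbegf and Nrg1 cross it, and no member passed the adjusted threshold.

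The 3 near-threshold members depended on how the genes were filtered and how variances were pooled. With the filter at the 50th percentile, 3 of the 7 members left were called, Btc higher (adjusted p = 0.0221) and Erbb2 (0.024) and Erbb3 (0.0355) lower, against 17.2% of all genes then tested. With a variance prior that follows the signal and resists outliers, the same 3 of 8 were called (adjusted p = 0.0103, 0.01 and 0.0117), against 13.6% of all genes. None was called when any array was left out.

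**Figure D3:**
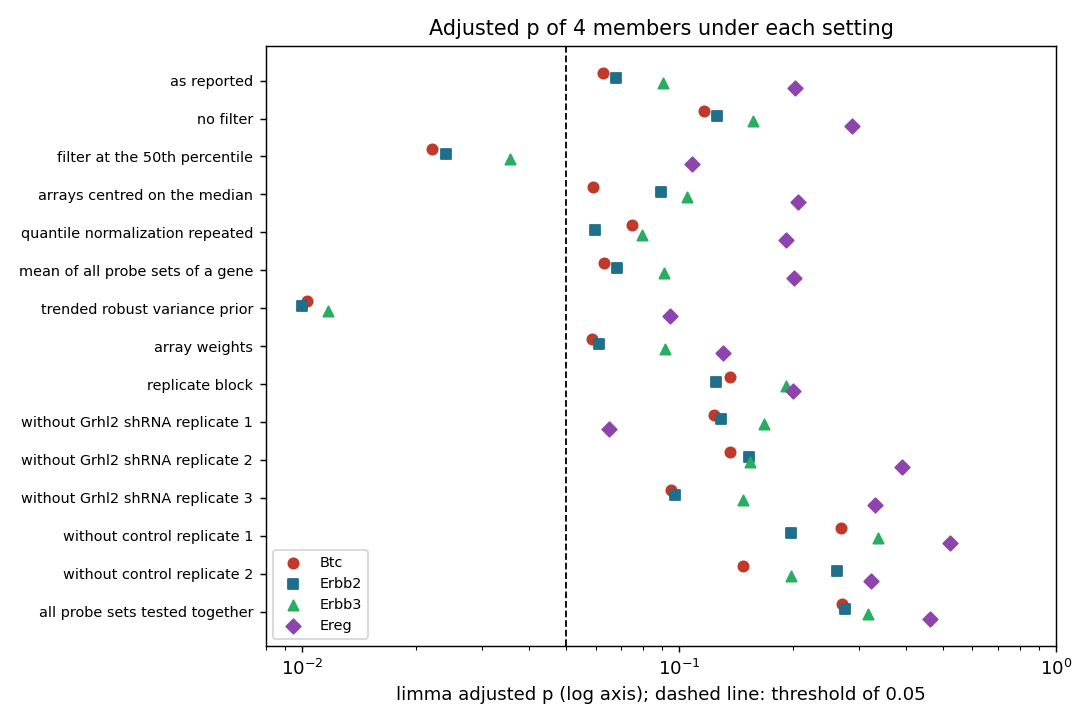
Limma adjusted p (x axis, log scale) of Btc, Erbb2, Erbb3 and Ereg under each setting (y axis), with a dashed line at 0.05. Btc, Erbb2 and Erbb3 cross the line under 2 settings, the filter at the 50th percentile and the trended robust variance prior, and Ereg under none.

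For Btc, the member with the smallest adjusted p, the tested genes with the most similar pattern were Nat9, Pemt and Mras. Likeness was the root mean square distance between log2 values over the 5 arrays, each gene centred on its own mean, and it was 0.010, 0.012 and 0.014. Their log2 fold changes were 0.20, 0.20 and 0.21, with limma adjusted p-values of 0.0547, 0.0606 and 0.0517. The distance includes the difference between groups, so these similar fold changes follow from how the genes were picked.

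Other genes of the pathway were described in 6 lists with 80 genes, of which 70 were tested. There were 5 rises and 3 falls among the 70, and 62 genes did not pass, against 2.86% of all genes higher and 3.52% lower. The median difference of the 70 was 0.0057, against 0.002 over all genes. Without control replicate 1 or control replicate 2, 1 of the 70 was called, and without shRNA replicates 2 and 3 it was 3 and 4.

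The genes that EGF receptor signalling is known to induce held 4 of the 5 rises. Among the 18 tested there were 4 rises, 0 falls and 14 genes that did not pass, with a median difference of 0.10. They serve other receptors too, so the list is not specific to the ErbB pathway. It was also chosen with earlier results of these data known. Over all genes tested, 2.86% were called higher and 3.52% lower. Etv5 (10363901, the brighter of its 2 probe sets), an ETS transcription factor downstream of ERK, had 9.38, 9.39 and 9.39 in Grhl2 shRNA cells, against 8.95 and 8.96 in control cells. It rose by 0.43 (SE 0.039, adjusted p = 0.00485), far more than the arrays of a group differed, and the call held whichever array was left out. Fosl1 (10460585), an AP-1 subunit, had 7.13, 7.13 and 7.16 in Grhl2 shRNA cells, against 6.82 and 6.76 in control cells. It rose by 0.35 (SE 0.043, adjusted p = 0.00906). Spry4 (10458555), a feedback inhibitor of Ras-ERK signalling, had 7.53, 7.79 and 7.66 in Grhl2 shRNA cells, against 7.21 and 7.27 in control cells, and rose by 0.42 (SE 0.075, adjusted p = 0.0276). Dusp4 (10571312), a phosphatase of ERK, had 10.02, 10.19 and 10.11 in Grhl2 shRNA cells, against 9.82 and 9.86 in control cells, and rose by 0.27 (SE 0.059, adjusted p = 0.0444). Fosl1 lost its call without control replicate 1 or 2 (adjusted p = 0.0543 and 0.0786). Spry4 and Dusp4 kept theirs only without shRNA replicate 1, with adjusted p-values of 0.0552 to 0.144 and 0.0948 to 0.195 without the other arrays. The 14 genes that did not pass had differences from −0.19 to 0.20. Among them, chosen after their values were seen, the early genes Fos, Egr1 and Ier3 had differences of 0.12 (adjusted p = 0.625), −0.01 (adjusted p = 0.929) and 0.0058 (adjusted p = 0.966). Jun and Junb were at −0.19 (adjusted p = 0.179) and −0.15 (adjusted p = 0.134). Myc and Ier2 were at 0.20 (adjusted p = 0.0664) and 0.14 (adjusted p = 0.267), and the ETS gene Etv4 at 0.19 (adjusted p = 0.174). Dusp6 and Dusp5, of the same family as Dusp4, were at 0.09 (adjusted p = 0.415) and −0.10 (adjusted p = 0.551). Spry2, of the same family as Spry4, was at 0.11 (adjusted p = 0.31). The Grhl2 shRNA arrays all lay below the control arrays in Jun and Junb, and all above them in Myc and Etv4. In the whole list the groups did not overlap in 8 of 18 genes, against 41.5% of all genes.

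Genes that restrain or internalise the receptors gave 2 falls. Among the 16 tested there were 0 rises and 14 genes that did not pass, with a median difference of 0.01. Over all genes tested, 3.52% were called lower and 2.86% higher. Sh3kbp1 (10602840), the adaptor CIN85 that links Cbl ubiquitin ligases to endocytosis of Egfr, had 7.76, 7.77 and 7.83 in Grhl2 shRNA cells, against 8.19 and 8.21 in control cells. Its log2 fold change was −0.42 (SE 0.043, adjusted p = 0.00593), a level of 74.9% of control. Cblb (10436209), a Cbl ubiquitin ligase, had 8.68, 8.73 and 8.75 in Grhl2 shRNA cells, against 8.91 and 8.95 in control cells, and fell by 0.21 (SE 0.044, adjusted p = 0.0393). Sh3kbp1 just missed the threshold without control replicate 1 or 2 (adjusted p = 0.0505 and 0.0545), and Cblb missed it whichever array was left out (0.0701 to 0.195). The 14 genes that did not pass had differences from −0.14 to 0.16. Among them, chosen after their values were seen, the ErbB inhibitors Errfi1 and Lrig1 had differences of 0.06 (adjusted p = 0.563) and 0.16 (adjusted p = 0.0712). Lrig3, of the same family as Lrig1, was at −0.14 (adjusted p = 0.135) and the receptor phosphatase gene Ptprj at −0.14 (adjusted p = 0.0837). Cbl, of the same family as Cblb, was at 0.03 (adjusted p = 0.735).

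In the PI3K-AKT, STAT and PLC arm, 12 genes were tested, with 1 rise, 1 fall, 10 that did not pass and a median difference of −0.01. The shares over all genes tested were 2.86% higher and 3.52% lower. Pik3r1 (10411782), a regulatory subunit of PI3 kinase, had 8.9955, 9.04 and 9.08 in Grhl2 shRNA cells, against 9.35 and 9.48 in control cells. It fell by 0.38 (SE 0.055, adjusted p = 0.0154), to 77.0% of control. Chosen after their values were seen, the PI3 kinase subunit genes Pik3r2, Pik3ca and Pik3cb did not pass. Their differences were −0.02, 0.01 and 0.0085 (adjusted p = 0.86, 0.909 and 0.941). Stat5a (10381172), a transcription factor activated by receptor kinases, had 8.41, 8.39 and 8.48 in Grhl2 shRNA cells, against 8.24 and 8.21 in control cells, and rose by 0.21 (SE 0.045, adjusted p = 0.0453). Pik3r1 missed the threshold without shRNA replicate 2, control replicate 1 or control replicate 2 (adjusted p = 0.0522, 0.0505 and 0.099), and Stat5a whichever array was left out (0.0853 to 0.201).

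No gene passed in the other 3 lists. Of 11 adaptors and Ras-ERK genes tested, the largest values were 0.21 for the kinase gene Map2k1 (adjusted p = 0.107) and 0.17 for the exchange factor gene Sos2 (adjusted p = 0.0558), and the list's median was −0.01. Of 11 genes for ligand release, Adam10, which sheds Btc, was at −0.16 (adjusted p = 0.0787) and Adam12 at 0.15 (adjusted p = 0.408), with a list median of 0.05. Adam17, the main protease for Tgfa and Hbegf, chosen after its value was seen, was at 0.07 (adjusted p = 0.434). Of the other ligands and the fourth receptor, Egf and Nrg2 were tested, with differences of −0.06 (adjusted p = 0.592) and −0.10 (adjusted p = 0.546). Erbb4, Nrg3 and Nrg4 lay below the filter.

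**Figure D4:**
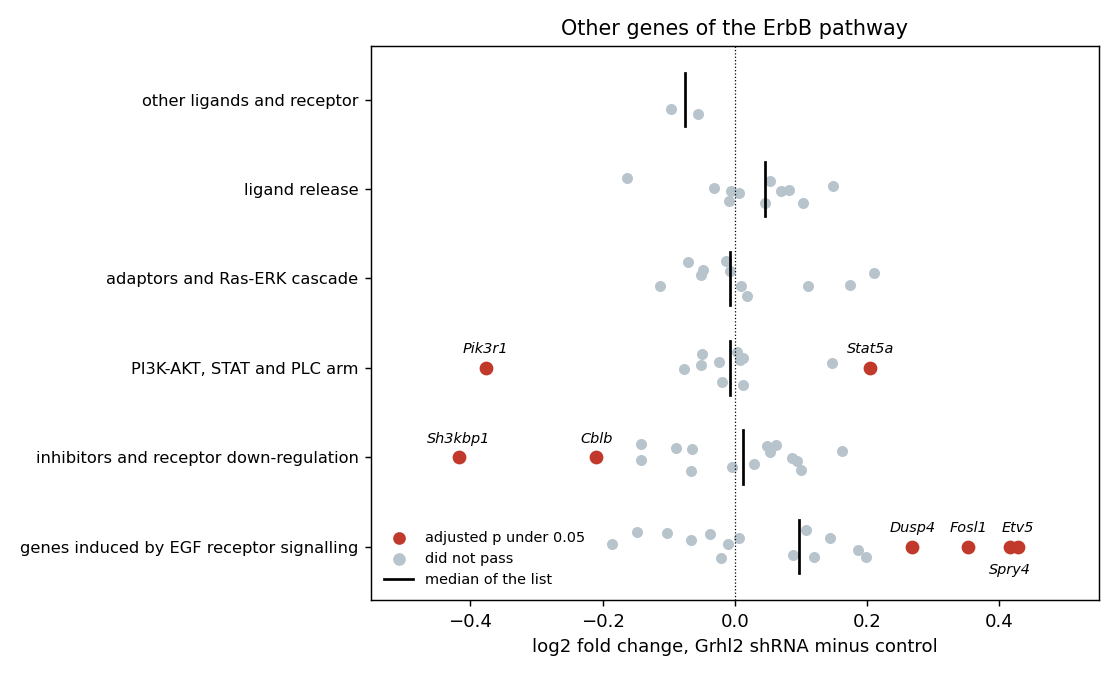
Log2 fold changes, Grhl2 shRNA minus control (x axis), of the 70 tested pathway genes in 6 lists (y axis, points spread vertically for legibility). Red points passed an adjusted p under 0.05 and are named, grey points did not, and black bars are list medians. The 4 named genes of the bottom list lie above 0, and Sh3kbp1, Cblb and Pik3r1 lie below it.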

How the data were processed

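RNA of 3 Grhl2 shRNA and 2 control cultures was measured on 1 array each. The submitters' processing notes name RMA and Affymetrix Expression Console, and the values the authors deposited are log2. RMA includes quantile normalization, which would hide a shift shared by all genes. The log base was inferred from the method and the range, while versions and build were not given in the sources used here. Of 34760 probe sets, 21640 had exactly 1 gene symbol in the platform annotation (1321 several, 11799 none listed). Single-symbol probe sets whose mean log2 value was under 4.22, the 25th percentile, were dropped, and the brightest probe set stood for a gene, giving 14979 genes.

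The comparison used limma 3.58.1 (lmFit, then eBayes without a trend, in R 4.3.3), two-sided, with Benjamini-Hochberg adjustment over all genes tested and a threshold of 0.05. Arrays give no counting depth, and with 3 residual degrees of freedom per gene their number limits the precision (median SE 0.051). Percent-of-control values are the fold change on the linear scale, with unadjusted 95% intervals.

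All members are named. The text names at most 4 called genes a list, taken by size, or the 2 largest values where fewer than 2 were called, and for Btc the 3 genes nearest in pattern. Members, lists and rules were chosen with earlier results of these data known. Of the 80 list genes, 6 are not reported here. Alternatives covered the filter, normalization, probe set choice, variance prior, array weights, replicate block, each array left out, the threshold and all probe sets tested together.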

Additional observations from a re-analysis of the deposited data

How the results depend on the processing

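The count of called members (0) was 3 with the filter at the 50th percentile, 3 with the trended robust variance prior and 3 at an adjusted p under 0.1, and 0 under every other alternative, each array left out included. Under the first 2 of these, Btc (0.20), Erbb2 (−0.17) and Erbb3 (−0.16) passed the threshold, as did Grhl2 (−0.24), with the same differences. Without shRNA replicate 3, Grhl2 also passed (−0.29), though not without shRNA replicate 1 or 2. The range of its difference over the left-out arrays was −0.29 to −0.19. Egfr and Nrg1 changed sign: they ranged from −0.017 to 0.10 and from −0.055 to 0.060 over the left-out arrays, and Nrg1 was −0.0039 with array weights. The cause of these changes was not tested. The other members kept their sign under every alternative that gave a value.

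The count over all genes (956) was 418 with no filter, 1708 with the filter at the 50th percentile, 2034 with the trended robust prior, 1851 at an adjusted p under 0.1, 172 with the replicate block, 67 to 493 with an array left out, and 0 when all probe sets were tested together with limma (4515 had an unadjusted p under 0.05). The count of called pathway genes (8) was 4, 14, 15, 13 and 2 in the same order, and 1 to 6 with an array left out. Same-numbered shRNA and control arrays hardly deviated together (r = 0.057 and 0.019 across genes), so the replicate block rests on a number alone. In it shRNA replicate 3 has no control of its number. Its differences therefore equal those without that array, as for Btc (0.2185) and Erbb2 (−0.1893), and it is no separate check of them. Values near the filter, as for Egfr and Epgn, are limited by weak signal.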

Other observations

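The ligand genes Epgn, Ereg, Areg and Btc lie next to each other on mouse chromosome 5 in the RefSeq gene order, with chemokine genes on one side. After the members' values had been seen, the 8 nearest protein-coding genes on each side of this cluster were looked up, and 8 of the 16 were tested. All 8 had a log2 fold change above 0, as did Ereg (0.19) and Btc (0.20), while 7631 of the 14979 genes tested were above 0. Of the 8, 2 rose and 6 did not pass, against 2.86% of all genes tested that rose. Cxcl15, which encodes the lung chemokine lungkine, rose by 0.27 (8.64 in Grhl2 shRNA cells and 8.38 in control cells, adjusted p = 0.0363). Parm1, the direct neighbour of Btc, which encodes a mucin-like membrane protein, rose by 0.21 (9.89 in Grhl2 shRNA cells and 9.67 in control cells, adjusted p = 0.0284). The neighbour of Epgn, Mthfd2l, a mitochondrial folate enzyme gene, was at 0.15 (adjusted p = 0.102). The other differences were 0.12 for G3bp2 (adjusted p = 0.173), 0.08 for Cxcl1 (adjusted p = 0.598), 0.06 for Rchy1 (adjusted p = 0.509), 0.02 for Cdkl2 (adjusted p = 0.872) and 0.0076 for Uso1 (adjusted p = 0.944). Neighbouring genes are not independent of each other, the window was chosen after the values were seen, and whether the neighbourhood differs from the rest of the genome was not tested.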
